A study of Homo sapiens with 9 samples.

Results

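The 10 collagen chain genes described here were measured in MDA-MB-231 cells, namely COL1A1, COL1A2, COL3A1, COL5A1, COL5A2 and COL11A1 of the fibrillar collagens, COL6A1, COL6A2 and COL6A3 of collagen VI, and COL7A1 of the anchoring fibrils. They were chosen by name, with earlier results of these data known, as 10 of the 26364 genes in the count files, and every one had an entry. MDA-MB-231 is a mesenchymal, triple-negative human breast cancer cell line. RNA was sequenced from 9 libraries, 3 from each of 3 conditions: the clone shGLO1#1 and the clone shGLO1#2, both stably expressing a short hairpin RNA against GLO1, and the clone shNT(Control) (shNT below), the control with a hairpin that targets no gene. GLO1 (glyoxalase 1) detoxifies methylglyoxal, a reactive by-product of glycolysis, and the comparison asks which genes change when the enzyme is depleted. Each condition was 1 clone, so the p-values below measure the spread between libraries of a clone and not between clones.

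Libraries held 15314238 to 18495576 counts on genes. GLO1 was at 64.2 to 65.9 CPM (counts scaled to the library size) in shGLO1#1 and at 14.0 to 15.5 CPM in shGLO1#2, against 312 to 323 CPM in shNT, so its mRNA was lower in the 6 libraries with the hairpin, and lower in shGLO1#2 than in shGLO1#1. The 5 genes fixed as markers of the line (VIM, CD44, AXL, CAV1 and MSN) summed to 6873 to 7531 CPM in shGLO1#1 and 7284 to 7571 CPM in shGLO1#2, against 6788 to 7432 CPM in shNT. Of the 4 genes fixed as absent or low, ESR1 and PGR had at most 7 reads in any library. The other 2 were not absent. ERBB2 averaged 75.5 CPM in shGLO1#1 and 67.9 CPM in shGLO1#2, against 79.8 CPM in shNT. EPCAM averaged 13.2 and 10.7 CPM, against 14.6 CPM in shNT. The fibroblast and stromal markers are given beside the collagen results, because fibroblasts are the usual source of these chains in tissue.

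Collagens are built from 3 polypeptide chains that wind into a triple helix, so a trimer of different chains takes them in a fixed proportion. Collagen I in its main form joins 2 chains from COL1A1 with 1 from COL1A2, while collagen III is made of COL3A1 chains alone. Collagen V joins 2 chains from COL5A1 with 1 from COL5A2 in its main form, starts fibrils of collagen I and limits their width, and can take up the COL11A1 chain in mixed V/XI trimers. Collagen VI needs 1 chain each from COL6A1, COL6A2 and COL6A3 and forms beaded microfilaments around cells. Collagen VII, made of COL7A1 chains alone, forms the anchoring fibrils that tie epithelial basement membranes to the matrix beneath. Chain balance is described below as a ratio of mRNA, which is not a ratio of protein chains.

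The RefSeq promoter table (GRCh38.p14) matched 5 of the 10 genes, COL5A1, COL11A1, COL6A2, COL6A3 and COL7A1. The 250 bases before the transcription start are printed for the 3 genes whose mRNA differed between the clones, with GC boxes (GGGCGG, the core of Sp1-family sites), CCAAT boxes (CCAAT), TATA boxes (TATAAA) and AP-1 sites (TGANTCA), each searched on both strands, in capitals. COL6A2 lies at chr21:46097862-46098111 on the plus strand, COL6A3 at chr2:237414165-237414414 on the minus strand, and COL11A1 at chr1:103108523-103108772 on the minus strand.
COL6A2: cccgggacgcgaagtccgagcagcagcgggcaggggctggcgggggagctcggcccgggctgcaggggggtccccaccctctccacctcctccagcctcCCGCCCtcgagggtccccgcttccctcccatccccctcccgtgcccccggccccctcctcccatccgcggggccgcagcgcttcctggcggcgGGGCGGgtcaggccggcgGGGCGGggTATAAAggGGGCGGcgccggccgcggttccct
COL6A3: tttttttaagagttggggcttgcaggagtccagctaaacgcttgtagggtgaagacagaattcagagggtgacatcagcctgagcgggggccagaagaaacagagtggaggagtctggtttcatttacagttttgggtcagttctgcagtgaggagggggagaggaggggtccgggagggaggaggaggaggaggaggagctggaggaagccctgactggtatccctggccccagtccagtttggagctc
COL11A1: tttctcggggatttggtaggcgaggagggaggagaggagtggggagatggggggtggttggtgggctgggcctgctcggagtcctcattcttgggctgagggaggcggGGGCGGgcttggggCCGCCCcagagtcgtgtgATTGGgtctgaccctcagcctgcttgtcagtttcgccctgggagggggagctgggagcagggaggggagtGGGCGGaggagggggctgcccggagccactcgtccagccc
The COL6A2 window held 4 GC boxes, 3 of them within the last 58 bases, and a TATA box 32 to 27 bases before the start. The COL6A3 window held none of the 4 motifs. In the COL11A1 window there were 3 GC boxes and 1 CCAAT box. COL5A1 had 2 GC boxes and COL7A1 had 3 GC boxes and 1 TATA box on the opposite strand, 124 to 119 bases before the start. Over 27305 promoter windows of the same length, 42.3% held a GC box, 33% a CCAAT box, 11.1% a TATA box and 6.6% an AP-1 site. The base composition also differed, with 79.6% G or C in COL6A2, 74% in COL5A1, 68.8% in COL11A1, 60.8% in COL7A1 and 56% in COL6A3, against a median of 58% over all windows. A match to letters is a description of the window and not a binding site.

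Of the 10 genes, 8 had enough counts to be tested among 13704 genes. COL1A2 and COL3A1 did not. COL11A1 reached the counts needed for testing only through its shGLO1#2 libraries (211 to 578 reads, against 4 to 10 in the other conditions). COL6A2 reached them only through the shGLO1 libraries (46 to 181 reads, against 3 to 7 in shNT). Their calls as higher there, and the counts and medians that include them, are therefore not independent of the filter. Calls below need both an adjusted p below 0.05 and a log2 fold change beyond 1 or -1. In shGLO1#1 against shNT, 5 of the 8 were called higher (COL5A1, COL6A1, COL6A2, COL6A3 and COL7A1) and none lower (0 at an unadjusted p under 0.05, and 0 by DESeq2), where 5.98% of all genes tested were called higher and 2.75% lower. In shGLO1#2 against shNT, 6 were called higher, the same 5 genes and COL11A1, and likewise none lower (0 at an unadjusted p under 0.05, and 0 by DESeq2), where 5.09% of all genes tested were called higher and 2.59% lower. The median log2 fold change of the 8 genes was 1.25 in shGLO1#1 and 1.26 in shGLO1#2, beside 0.0013 and 0.0012 over all genes tested. Because the 10 genes were chosen with earlier results of these data known, the values over all genes give scale and are not a test of the group. Both comparisons share the 3 shNT libraries. Directly between the clones, shGLO1#2 against shGLO1#1, COL11A1 and COL6A2 were called higher and COL6A3 lower, where 3.33% of all genes tested were called higher and 3.75% lower. The median there was -0.01, beside -0.0095 over all genes. In RNA from whole cultures, fewer cells that express a chain and less RNA per cell cannot be told apart.

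**Figure D1:**
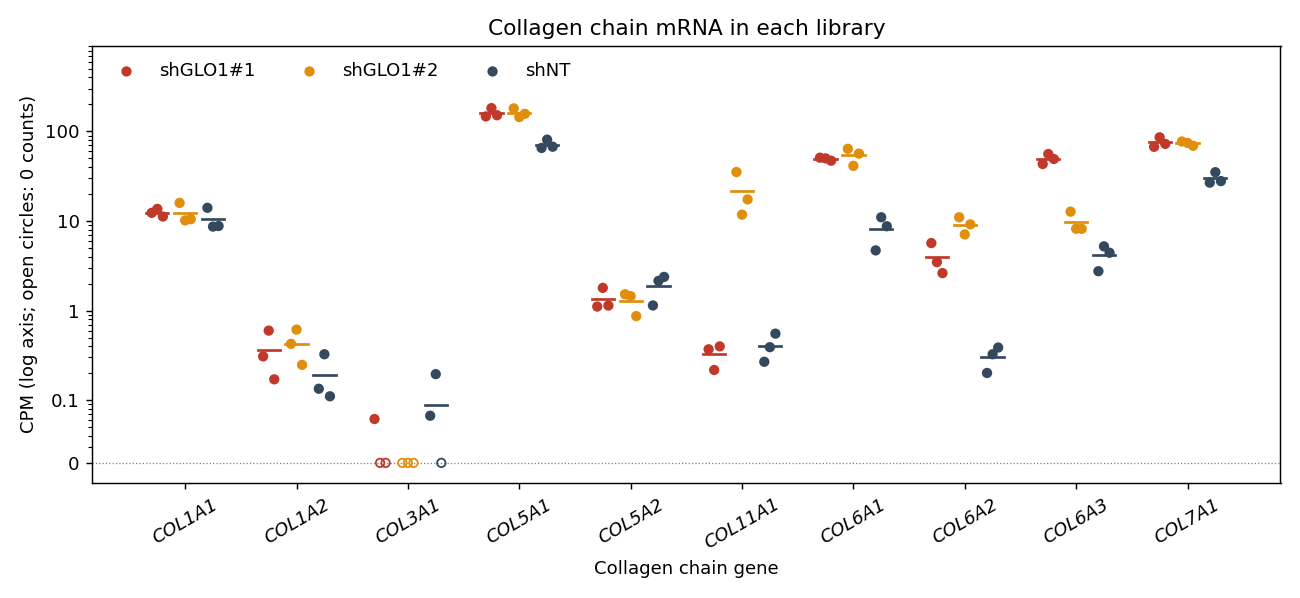
Level of each collagen chain mRNA in CPM (log axis) in the 9 libraries, with shGLO1#1, shGLO1#2 and shNT from left to right at each gene; points are libraries, short lines are means of 3 libraries, and open circles are libraries with 0 counts. COL6A1, COL6A2, COL6A3, COL5A1 and COL7A1 sit above shNT in both clones, and COL11A1 does so in shGLO1#2 alone, at 11.8 to 35.2 CPM.

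All 3 collagen VI chains rose in both clones. COL6A1, which encodes the alpha1 chain, had 50.9, 50.1 and 47.2 CPM in shGLO1#1 and 64.0, 41.3 and 56.6 CPM in shGLO1#2, against 4.70, 11.02 and 8.75 CPM in shNT. All 6 shGLO1 libraries lay above all 3 shNT libraries, while the ranges of the clones overlapped. COL6A1 rose 6.02-fold in shGLO1#1 (log2 fold change 2.59, SE 0.21, adjusted p = 5.35e-07, edgeR quasi-likelihood test) and 6.57-fold in shGLO1#2 (2.72, SE 0.21, adjusted p = 5.07e-07). The difference between the clones was 0.13 on the log2 scale with an SE of 0.17 (edgeR adjusted p = 0.581).

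COL6A2, which encodes the alpha2 chain, was near the limit of detection in control cells. Its reads numbered 92, 64 and 46 in shGLO1#1 and 181, 127 and 148 in shGLO1#2, against 3, 5 and 7 in shNT. In CPM these were 5.68, 3.48 and 2.62 in shGLO1#1 and 11.02, 7.09 and 9.18 in shGLO1#2, against 0.202, 0.326 and 0.388 in shNT. No library of one condition overlapped those of another. The fold change was 12.3 in shGLO1#1 (log2 3.62, SE 0.41, edgeR adjusted p = 1.11e-05) and 28.6 in shGLO1#2 (log2 4.84, SE 0.37, edgeR adjusted p = 4.85e-07). The ratio of summed counts per summed library size, with an exact 95% interval for counting error only, was 12.5 (7.39 to 22.7) for shGLO1#1 and 29.1 (17.5 to 52.4) for shGLO1#2, so the 15 control reads leave the size of the rise loosely fixed. COL6A2 was 2.33-fold higher in shGLO1#2 than in shGLO1#1 (log2 1.22, SE 0.24, edgeR adjusted p = 0.000938). Without the third shGLO1#1 library, which was the lowest, the log2 difference between the clones was 0.997, no longer past the limit of 1.

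COL6A3, which encodes the large alpha3 chain, followed another order. It had 43.3, 56.0 and 49.3 CPM in shGLO1#1 and 12.7, 8.21 and 8.19 CPM in shGLO1#2, against 2.75, 5.22 and 4.43 CPM in shNT. The 3 conditions did not overlap, with shGLO1#1 highest and shGLO1#2 between it and shNT. The chain rose 11.9-fold in shGLO1#1 (log2 fold change 3.57, SE 0.20, adjusted p = 3.12e-08 from edgeR) and 2.33-fold in shGLO1#2 (1.22, SE 0.22, adjusted p = 0.000664). The call in shGLO1#2 rested on the first of its libraries, since the log2 fold change without it was 0.987. COL6A3 was 5.11-fold lower in shGLO1#2 than in shGLO1#1 (log2 -2.35, SE 0.17, edgeR adjusted p = 2.47e-07), the direction opposite to COL6A2.

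**Figure D2:**
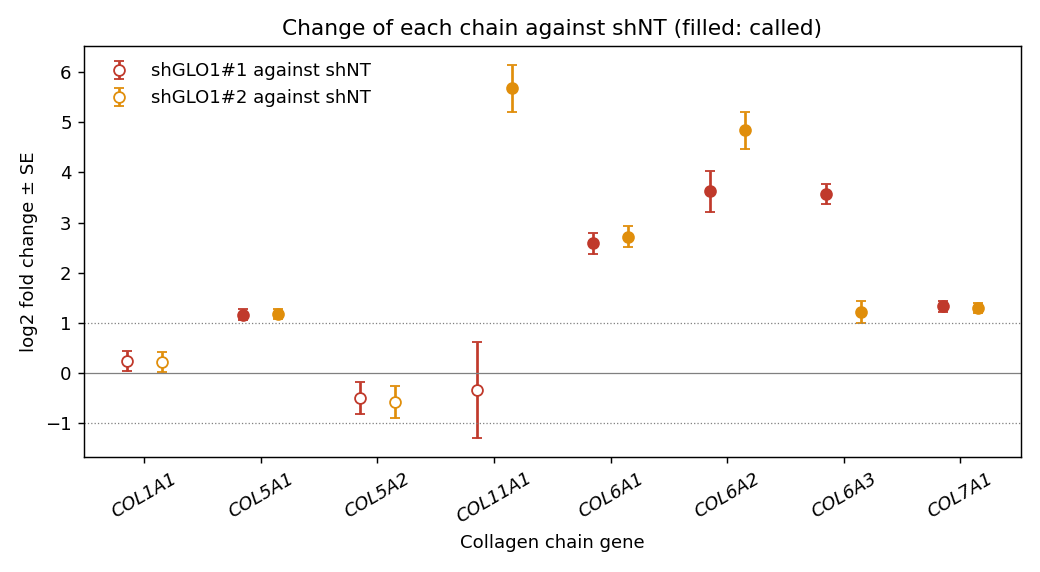
Log2 fold change of the 8 tested chains against shNT, with standard error, for shGLO1#1 (left of each pair) and shGLO1#2 (right); filled circles are called genes, and dotted lines mark log2 fold changes of 1 and -1. The clones lie side by side at COL5A1, COL6A1 and COL7A1 and apart at COL11A1, COL6A2 and COL6A3.

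The proportions of the collagen VI chains were compared as counts per kb of exon, which allows levels of genes of different length to be set side by side. COL6A1 made up 74.0 ± 1.02% of the collagen VI mRNA in shGLO1#1 and 82.2 ± 0.953% in shGLO1#2, against 84.7 ± 1.57% in shNT (mean ± SD, n = 3 libraries each). COL6A2 made up 5.80 ± 2.167% in shGLO1#1 and 13.8 ± 0.298% in shGLO1#2, against 3.26 ± 0.638% in shNT. COL6A3 made up 20.2 ± 2.61% in shGLO1#1 and 4.04 ± 0.656% in shGLO1#2, against 12.02 ± 1.11% in shNT. The summed level of the chains was 12.5 ± 0.581 CPM per kb in shGLO1#1 and 12.3 ± 2.63 CPM per kb in shGLO1#2, against 1.79 ± 0.676 CPM per kb in shNT. The clones thus had similar sums from different mixtures, with COL6A3 the second chain in shGLO1#1 and in shNT and COL6A2 the second chain in shGLO1#2.

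Since the trimer takes 1 chain of each kind, the chain ratios were followed library by library. The ratio of COL6A3 to COL6A1 per kb was 0.232, 0.304 and 0.284 in shGLO1#1 and 0.0542, 0.0542 and 0.0395 in shGLO1#2, against 0.160, 0.129 and 0.138 in shNT. The 3 conditions did not overlap, and the clones lay on opposite sides of shNT. The mean log2 ratio differed from shNT by 0.94 in shGLO1#1 and by -1.54 in shGLO1#2. Each difference had p = 0.10 in a two-sided exact permutation test, the smallest that 3 against 3 libraries can give, and an adjusted p of 0.16 over the 24 chain ratio tests.

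The ratio of COL6A3 to COL6A2 was 2.08, 4.38 and 5.10 in shGLO1#1 and 0.317, 0.317 and 0.245 in shGLO1#2, against 3.25, 4.02 and 2.94 in shNT. In shGLO1#2 the alpha2 mRNA exceeded the alpha3 mRNA in every library, and in the other conditions the alpha3 mRNA was the larger. The mean log2 ratio differed from shNT by 0.09 in shGLO1#1, where the libraries overlapped those of shNT, and by -3.54 in shGLO1#2. The exact permutation test gave p = 0.90 (adjusted 0.90) for shGLO1#1 and p = 0.10 (adjusted 0.16) for shGLO1#2.

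COL6A1 exceeded COL6A2 in every library. Their ratio was 8.996, 14.4 and 17.9 in shGLO1#1 and 5.84, 5.85 and 6.19 in shGLO1#2, against 20.3, 31.1 and 21.3 in shNT. It was lower than in shNT in all 6 shGLO1 libraries. The mean log2 ratio differed from shNT by -0.84 in shGLO1#1 and by -1.996 in shGLO1#2 (each exact permutation p = 0.10, adjusted 0.16). The clones did not overlap, and shGLO1#2 differed from shGLO1#1 by -1.15 (exact permutation p = 0.10, adjusted 0.16). With the clones pooled, the difference from shNT was -1.42 (exact permutation p = 0.0238, adjusted 0.16). That p is the smallest that 6 against 3 libraries can give, and the pooled test counts libraries of both clones as replicates of the same condition. The genes are neighbours on chromosome 21, on the same strand and 93.0 kb apart with no protein-coding gene between them. COL6A3 is on chromosome 2. The further alpha3-type chains COL6A5 and COL6A6 had 0 reads in all 9 libraries and were not tested.

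**Figure D3:**
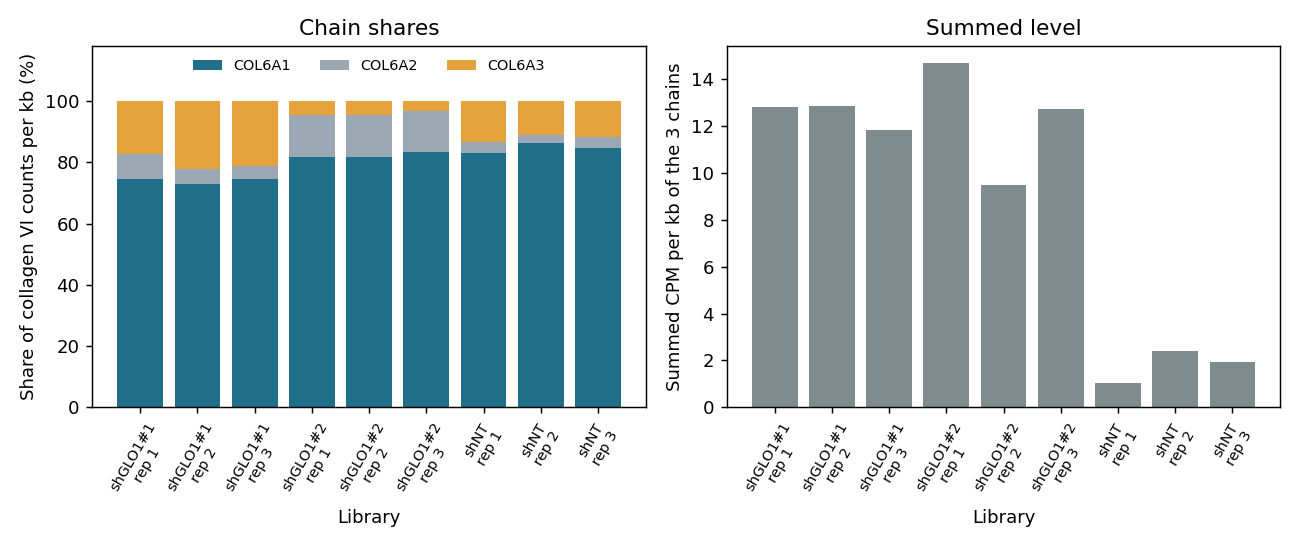
Left, share of each collagen VI chain in the summed counts per kb of COL6A1, COL6A2 and COL6A3 in each library (percent); right, the summed level in CPM per kb. Shares of COL6A3 are 17.3 to 22.2% in shGLO1#1 and 3.28 to 4.42% in shGLO1#2, against 11.1 to 13.3% in shNT, while the sums are 9.47 to 14.7 CPM per kb in the shGLO1 libraries and 1.06 to 2.39 in shNT.

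Per kb of exon, COL5A1 was the most abundant of the 6 fibrillar chains in every condition. It encodes the alpha1 chain of collagen V, and had 147, 182 and 152 CPM in shGLO1#1 and 181, 145 and 157 CPM in shGLO1#2, against 65.4, 81.0 and 67.5 CPM in shNT. The shGLO1 libraries lay above those of shNT without overlap, and the clones overlapped each other. COL5A1 rose 2.25-fold in shGLO1#1 (log2 fold change 1.17, SE 0.10, adjusted p = 1.12e-06, edgeR) and 2.26-fold in shGLO1#2 (1.17, SE 0.10, adjusted p = 1.49e-06). Between the clones the log2 difference was 0.0049 with an SE of 0.10.

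Its partner COL5A2, the alpha2 chain of collagen V, was scarce and was not called. COL5A2 had 1.11, 1.80 and 1.14 CPM in shGLO1#1 and 1.52, 1.45 and 0.869 CPM in shGLO1#2, against 1.14, 2.15 and 2.38 CPM in shNT, and the 3 conditions overlapped. Its log2 fold change was -0.49 (SE 0.31, edgeR adjusted p = 0.218) in shGLO1#1 and -0.57 (SE 0.32, edgeR adjusted p = 0.180) in shGLO1#2. The ratio of COL5A1 to COL5A2 per kb was 85.8, 66.6 and 86.5 in shGLO1#1 and 77.5, 65.2 and 116 in shGLO1#2, against 37.1, 24.7 and 18.7 in shNT. All 6 shGLO1 libraries exceeded the shNT libraries. The mean log2 ratio was 1.62 higher in shGLO1#1 and 1.70 higher in shGLO1#2 (each exact permutation p = 0.10, adjusted 0.16). With the clones pooled it was 1.66 higher (exact permutation p = 0.0238, adjusted 0.16), a test that counts libraries of 2 clones as replicates of 1 condition. Even in shNT the geometric mean ratio was 25.8, where the main trimer takes 2 alpha1 chains for each alpha2 chain.

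COL11A1 encodes the alpha1 chain of collagen XI and had the largest difference between the clones of the 8 tested chains. Its reads numbered 6, 4 and 7 in shGLO1#1 and 578, 211 and 281 in shGLO1#2, against 4, 6 and 10 in shNT. The levels were 0.370, 0.218 and 0.399 CPM in shGLO1#1 and 35.2, 11.8 and 17.4 CPM in shGLO1#2, against 0.269, 0.391 and 0.554 CPM in shNT. shGLO1#1 and shNT overlapped near the detection limit, and each shGLO1#2 library was far above both, though the first exceeded the sum of the other two. The log2 fold change against shNT was -0.33 (SE 0.96, edgeR adjusted p = 0.799) in shGLO1#1. In shGLO1#2 it was 5.67 (SE 0.48, edgeR adjusted p = 1.00e-06), and the ratio of summed counts to shNT was 51.2 (exact 95% interval 33.0 to 84.2). Between the clones COL11A1 was 64.2-fold higher in shGLO1#2 than in shGLO1#1 (log2 6.005, SE 0.49, edgeR adjusted p = 5.09e-07), with a ratio of summed counts of 65.0 (exact 95% interval 40.4 to 112). The log2 difference between the clones was 5.45 to 6.31 as each library was left out in turn.

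COL11A1 remained the smaller partner when set against COL5A1, with which it can share a trimer. Per kb its ratio to COL5A1 was 0.00336, 0.00165 and 0.00347 in shGLO1#1 and 0.240, 0.1004 and 0.137 in shGLO1#2, against 0.00568, 0.00644 and 0.0106 in shNT. The log2 ratio differed from shNT by -1.44 in shGLO1#1 and by 4.35 in shGLO1#2 (each exact permutation p = 0.10, adjusted 0.16).

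COL1A1, the alpha1 chain of collagen I, was present at a moderate level and was not called. It had 12.3, 13.7 and 11.2 CPM in shGLO1#1 and 16.0, 10.2 and 10.5 CPM in shGLO1#2, against 14.0, 8.67 and 8.80 CPM in shNT. All 3 conditions overlapped, and the log2 fold change was 0.25 (SE 0.20, edgeR adjusted p = 0.335) in shGLO1#1 and 0.22 (SE 0.20, edgeR adjusted p = 0.424) in shGLO1#2.

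Its partner COL1A2 was nearly absent. COL1A2 had 5, 11 and 3 reads in shGLO1#1 and 7, 11 and 4 reads in shGLO1#2, against 2, 5 and 2 reads in shNT. The ratio of summed counts per library size to shNT was 1.96 (exact 95% interval 0.843 to 4.91) in shGLO1#1 and 2.34 (1.04 to 5.77) in shGLO1#2, for counting error only. When all genes with at least 1 read were tested, its log2 fold change was 0.93 (edgeR adjusted p = 0.305) in shGLO1#1 and 1.19 (edgeR adjusted p = 0.171) in shGLO1#2, neither past the threshold. The geometric mean ratio of COL1A1 to COL1A2 per kb was 40.4 in shGLO1#1 and 31.3 in shGLO1#2, against 57.5 in shNT, with overlapping libraries (exact permutation p = 0.50 for shGLO1#1 and 0.30 for shGLO1#2). The heterotrimer takes 2 alpha1 chains for each alpha2 chain, so COL1A2 was the scarcer mRNA relative to that proportion in all 9 libraries.

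COL3A1, the sole chain of collagen III, gave 1, 0 and 0 reads in shGLO1#1 and 0 in each shGLO1#2 library, against 1, 3 and 0 reads in shNT. These counts were too few for a comparison. COL3A1 and COL5A2 lie next to each other on chromosome 2 on opposite strands, 19.2 kb apart.

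**Figure D4:**
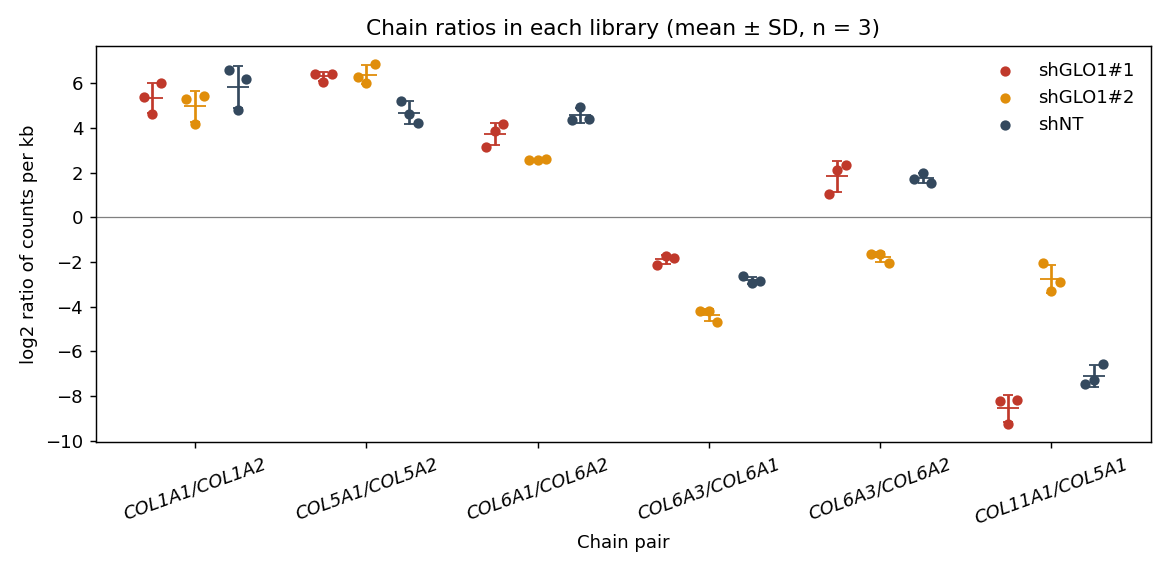
Log2 ratio of counts per kb for 6 chain pairs in each library, with mean ± SD of 3 libraries, for shGLO1#1, shGLO1#2 and shNT from left to right at each pair. For COL6A3/COL6A1 the means are -1.88 in shGLO1#1 and -4.36 in shGLO1#2, against -2.82 in shNT; for COL5A1/COL5A2 they are 6.30 and 6.39, against 4.69.

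COL7A1, the chain of the anchoring fibrils, needs no partner for its trimer. It had 67.3, 86.0 and 72.6 CPM in shGLO1#1 and 77.2, 74.5 and 69.2 CPM in shGLO1#2, against 26.8, 35.1 and 27.9 CPM in shNT. The shGLO1 libraries did not overlap those of shNT, and the clones overlapped each other. COL7A1 rose 2.52-fold in shGLO1#1 (log2 fold change 1.33, SE 0.11, adjusted p = 4.96e-07, edgeR) and 2.46-fold in shGLO1#2 (1.30, SE 0.11, adjusted p = 8.53e-07). The clones differed by -0.03 on the log2 scale (SE 0.10). COL17A1, a transmembrane collagen of hemidesmosomes, averaged 20.7 ± 1.73 CPM in shGLO1#1 and 19.2 ± 1.97 CPM in shGLO1#2, against 10.04 ± 1.87 CPM in shNT. Its log2 fold change was 1.04 in shGLO1#1 and 0.92 in shGLO1#2, so it was called higher in shGLO1#1, just past the limit of 1, and was just short of it in shGLO1#2.

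Ordered by level per kb, COL5A1 came first in every condition, at 14.3 ± 1.70 CPM per kb in shGLO1#1 and 14.4 ± 1.64 in shGLO1#2, against 6.37 ± 0.754 in shNT. COL6A1 was second in both clones, at 9.24 ± 0.368 CPM per kb in shGLO1#1 and 10.1 ± 2.166 in shGLO1#2, and held the third place in shNT at 1.53 ± 0.599, where its libraries overlapped those of COL1A1. COL7A1 held the third place in the clones, at 6.80 ± 0.870 and 6.65 ± 0.370 CPM per kb, and second in shNT at 2.70 ± 0.406. The fourth place was held by COL6A3 in shGLO1#1 (2.52 ± 0.322 CPM per kb), by COL11A1 in shGLO1#2 (2.36 ± 1.34) and by COL1A1 in shNT (1.07 ± 0.312). In shGLO1#2 the libraries of COL11A1, COL6A2 and COL1A1 overlapped from one place to the next. COL1A2 and COL3A1 came last in each condition, at or under 0.0385 CPM per kb.

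Across the 9 libraries, the log2 CPM of COL5A1 and COL7A1 had a Pearson r of 0.99, and 0.85 after the mean of each condition was taken out. COL5A1 and COL6A1 had 0.98 and 0.66. COL11A1 and COL6A3 had -0.19 over all libraries and 0.60 within conditions. These values describe 9 libraries of 3 clones. Among 12759 genes the closest to COL5A1 were COL7A1, KLF4 and KDM3A (r 0.99 each), and the closest to COL7A1 were COL5A1, PCDHB2 and KDM3A (r 0.99 each). Those closest to COL6A1 were APCDD1L (1.00), KLF4 and PCDHB9 (both 0.99), to COL6A2 were MFAP2, NT5E and IGSF3 (each 0.99), and to COL6A3 were NET1 (1.00), TCN2 and OAS2 (both 0.99). COL11A1 was matched most closely by ASS1, EIF3H and RAD21 (each 0.99). For the chains that were not called, the values were lower, at 0.94 to 0.97 for COL1A1 (KIAA0319, CLDN7 and ACSF2) and 0.83 to 0.90 for COL5A2 (LOC100499484, EBPL and TXNDC11).

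Among the other collagens, COL24A1, COL27A1, COL16A1 and COL17A1 were called against shNT in at least 1 clone, all higher. Over all genes tested, 5.98% were called higher and 2.75% lower in shGLO1#1, and 5.09% and 2.59% in shGLO1#2. Of the 5 remaining fibrillar genes, 3 were tested, and the median log2 fold change was 0.50 in shGLO1#1 and 0.46 in shGLO1#2. COL24A1, a minor fibrillar chain, had 0.894 ± 0.189 CPM in shGLO1#1 and 0.161 ± 0.0761 CPM in shGLO1#2, against 0.129 ± 0.0731 CPM in shNT, and rose in shGLO1#1 (log2 fold change 2.78, edgeR adjusted p = 0.000305). It reached the counts needed for testing only through its shGLO1#1 libraries (11 to 19 reads, against 1 to 4 in the other conditions). Its calls, and the counts and medians that include it, are therefore not independent of the filter. COL27A1, another fibrillar chain, had 8.19 ± 0.859 CPM in shGLO1#1 and 20.2 ± 4.80 CPM in shGLO1#2, against 5.81 ± 2.26 CPM in shNT, and rose in shGLO1#2 (1.81, edgeR adjusted p = 3.00e-05). Both differed between the clones, with log2 differences of -2.45 for COL24A1 and 1.30 for COL27A1 for shGLO1#2 against shGLO1#1 (edgeR adjusted p = 0.000493 and 0.000236). Of 10 fibril-associated (FACIT and FACIT-like) collagens 3 were tested, and COL16A1, a chain that links fibrils to their surroundings, rose in both clones, to 1.33 ± 0.407 CPM in shGLO1#1 and 2.76 ± 0.150 CPM in shGLO1#2, against 0.552 ± 0.101 CPM in shNT. COL16A1 reached the counts needed for testing only through the shGLO1 libraries (14 to 49 reads, against 7 to 12 in shNT). Its calls as higher are likewise not independent of the filter. Of 9 transmembrane, multiplexin and network collagens 5 were tested, and the one called against shNT was COL17A1 in shGLO1#1. COL18A1 of that list was called lower in shGLO1#2 than in shGLO1#1 (log2 -1.12, edgeR adjusted p = 3.14e-07), where 3.75% of all genes tested were called lower. The means in this paragraph and those below are given with the SD of 3 libraries.

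Genes that prepare procollagen in the cell were counted next. Of 19 genes for procollagen modification and folding 18 were tested, of which 1 was called higher and 1 lower for shGLO1#1 (beside 5.98% and 2.75% of all genes), and 2 higher and 0 lower for shGLO1#2 (beside 5.09% and 2.59%; 5 lower at an unadjusted p under 0.05, and 0 by DESeq2), with a median log2 fold change of -0.09 in shGLO1#1 and 0.08 in shGLO1#2. FKBP10, a prolyl isomerase and collagen chaperone, rose in both clones, to 1.25 ± 0.0493 CPM in shGLO1#1 and 0.896 ± 0.107 CPM in shGLO1#2, against 0.312 ± 0.0685 CPM in shNT. FKBP10 reached the counts needed for testing only through the shGLO1 libraries (14 to 23 reads, against 4 to 6 in shNT). Its calls, and the counts and medians that include it, are therefore not independent of the filter. P3H2, a prolyl 3-hydroxylase, had 56.2 ± 4.52 CPM in shGLO1#1 and 112 ± 10.1 CPM in shGLO1#2, against 123 ± 9.51 CPM in shNT, and fell in shGLO1#1 (log2 fold change -1.13). P3H3, of the same enzyme family, had 0.779 ± 0.288 CPM in shGLO1#1 and 4.67 ± 1.47 CPM in shGLO1#2, against 0.976 ± 0.0334 CPM in shNT, and rose in shGLO1#2 (2.25). SERPINH1, the collagen chaperone HSP47, is given as a reference point chosen after its values were seen, with 171 CPM in shGLO1#1 and 211 CPM in shGLO1#2, against 170 CPM in shNT. None of the 10 genes of procollagen export from the endoplasmic reticulum was called in either clone (0 by edgeR and by DESeq2, and at an unadjusted p under 0.05, 4 higher with 3 lower in shGLO1#1, and 2 higher with 3 lower in shGLO1#2), and their medians were -0.04 in shGLO1#1 and 0.05 in shGLO1#2. Of 8 genes for propeptide removal 4 were tested, and PCOLCE2, an enhancer of procollagen C-proteinase, was called in shGLO1#2 (log2 1.30) and was at 0.99 in shGLO1#1.

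Proteins that bind collagen fibrils showed changes in both directions. Of 16 fibril partners 8 were tested, of which 3 were called higher and 2 lower for shGLO1#1, and 3 higher and 1 lower for shGLO1#2, with medians of 0.17 and 0.55. Over all genes tested, 5.98% were called higher and 2.75% lower in shGLO1#1, and 5.09% and 2.59% in shGLO1#2. SPARC, which binds fibrillar collagens, rose in both clones, to 0.765 ± 0.326 CPM in shGLO1#1 and 1.06 ± 0.142 CPM in shGLO1#2, against 0.110 ± 0.1001 CPM in shNT. TNC, the matrix glycoprotein tenascin C, rose to 50.6 ± 11.6 CPM in shGLO1#1 and 50.9 ± 12.2 CPM in shGLO1#2, against 9.55 ± 5.98 CPM in shNT. LUM (lumican), a small proteoglycan that spaces collagen fibrils, fell to 0.901 ± 0.159 CPM in shGLO1#1 and 0.277 ± 0.193 CPM in shGLO1#2, against 4.73 ± 0.745 CPM in shNT. MATN2 (matrilin 2), an adaptor of matrix filaments, fell in shGLO1#1 (log2 -2.27) and was at -0.76 in shGLO1#2, short of the limit. The other called genes, named after their values were seen, were FN1 (fibronectin), higher in shGLO1#1 (1.41, and 0.55 in shGLO1#2), and FMOD (fibromodulin), higher in shGLO1#2 (2.64, and -0.21 in shGLO1#1). FMOD reached the counts needed for testing only through its shGLO1#2 libraries (26 to 39 reads, against 3 to 6 in the other conditions). SPARC did so only through the shGLO1 libraries (9 to 20 reads, against 0 to 3 in shNT). The calls of FMOD and SPARC, and the counts and medians that include them, are therefore not independent of the filter.

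Of 14 collagen receptors 12 were tested, of which 3 were called higher and 2 lower for shGLO1#1, and 1 lower for shGLO1#2, beside 5.98% higher and 2.75% lower of all genes in shGLO1#1 and 5.09% and 2.59% in shGLO1#2. CSPG4 (NG2), a proteoglycan that binds collagen VI, fell in both clones, to 13.3 ± 1.69 CPM in shGLO1#1 and 14.6 ± 3.65 CPM in shGLO1#2, against 32.2 ± 10.3 CPM in shNT (log2 -1.27 and -1.14, edgeR adjusted p = 0.000209 and 0.000579). MCAM, a cell adhesion molecule, fell in shGLO1#1 (-1.18) and was at -0.79 in shGLO1#2. MRC2, an endocytic collagen receptor, and ITGA10, a collagen-binding integrin chain, were called higher in shGLO1#1 (1.28 and 1.32), with values of 0.60 and 0.48 in shGLO1#2. ITGA2, another such integrin chain, was also higher in shGLO1#1 and is named after its values were seen. The median of the receptors was 0.61 in shGLO1#1 and 0.26 in shGLO1#2. Of 8 collagen-degrading enzymes 3 were tested, and MMP14, a membrane-bound collagenase, was called in shGLO1#1 at a log2 fold change of 1.01 and was at 0.42 in shGLO1#2.

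**Figure D5:**
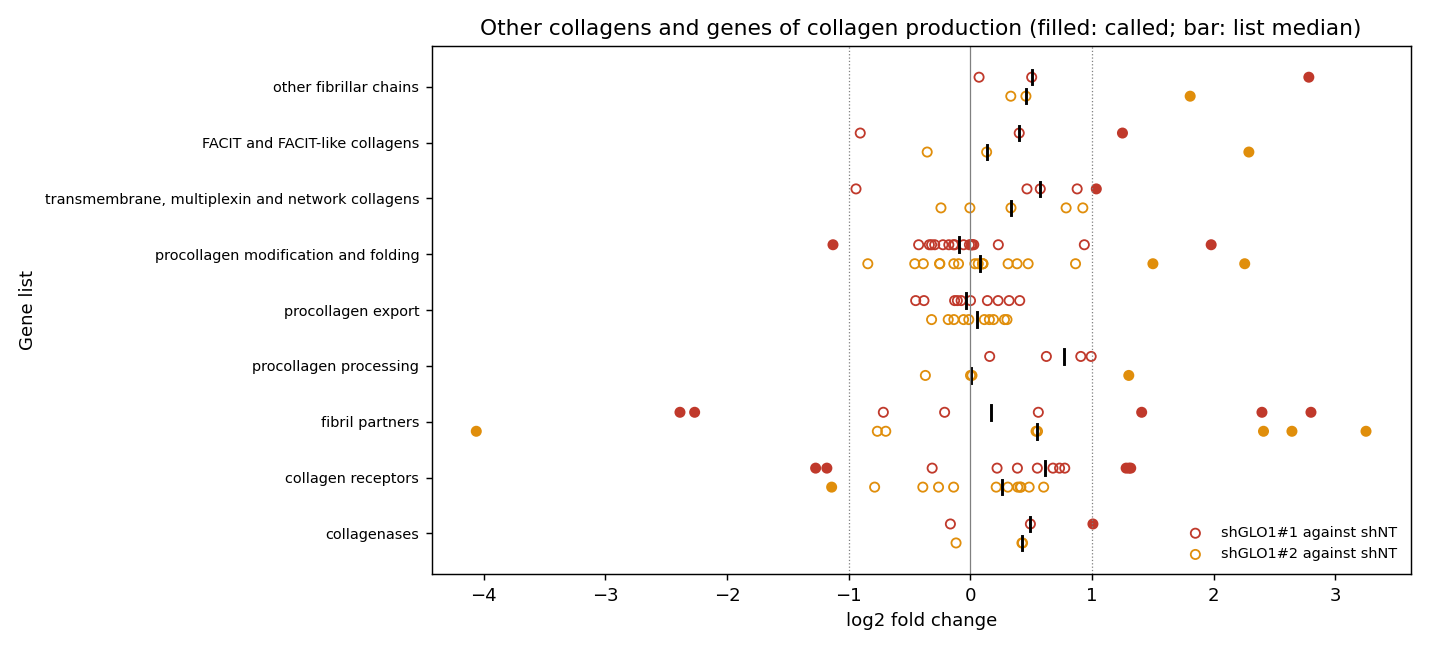
Log2 fold change against shNT of the tested genes in 9 lists of other collagens and collagen-related genes, with shGLO1#1 above and shGLO1#2 below in each list; filled circles are called genes, and black bars are list medians. Procollagen export has no called gene, and the fibril partners hold called genes on both sides of 0.

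Fibroblast and stromal markers were low in all libraries. The 10 markers summed to 7.53 to 9.81 CPM in shGLO1#1 and 14.0 to 17.6 CPM in shGLO1#2, against 11.9 to 14.9 CPM in shNT. DPT and PDPN had 0 reads in all 9 libraries, and PDGFRA, THY1, FAP and DCN had at most 5 reads in any library. Of the 10 markers, only PDGFRB, ACTA2, TAGLN and LUM had enough counts to be tested. In each clone 2 of those tested were called against shNT. These were ACTA2 (log2 fold change -1.39) and LUM (-2.39), lower in shGLO1#1, and PDGFRB (1.10), higher, and LUM (-4.06), lower, in shGLO1#2. Over all genes tested, 5.98% were called higher and 2.75% lower in shGLO1#1, and 5.09% and 2.59% in shGLO1#2. PDGFRB averaged 1.20 CPM in shGLO1#1 and 5.22 CPM in shGLO1#2, against 2.42 CPM in shNT. TAGLN, whose log2 differences of 0.42 for shGLO1#1 and 0.99 for shGLO1#2 missed the fold limit, averaged 5.80 CPM in shGLO1#1 and 8.62 CPM in shGLO1#2, against 4.38 CPM in shNT. LUM is also counted among the fibril partners above. The 4 endothelial markers summed to 6.10 to 7.90 CPM in shGLO1#1 and 7.71 to 9.68 CPM in shGLO1#2, against 4.37 to 5.67 CPM in shNT, with CDH5 at 0 to 2 reads. The 4 leukocyte markers, of which CD68 made up most, summed to 141 to 153 CPM in shGLO1#1 and 139 to 160 CPM in shGLO1#2, against 124 to 129 CPM in shNT, with CD3E at 0 or 1 read. Of the endothelial markers, PECAM1 was called higher in shGLO1#1 (log2 fold change 1.66), and PECAM1 (1.90) and VWF (2.47) in shGLO1#2. VWF reached the counts needed for testing only through its shGLO1#2 libraries (11 to 18 reads, against 2 to 5 in the other conditions). Its call is therefore not independent of the filter. Of the leukocyte markers, PTPRC was called lower in both clones, at 1.21 CPM in shGLO1#1 and 2.57 CPM in shGLO1#2, against 8.37 CPM in shNT. The part of other cell types in the collagen results was not tested beyond these levels.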

How the data were processed

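Total RNA libraries of MDA-MB-231 cells were made with an Illumina TruSeq RNA kit. Per the submitters' processing notes the authors used bcl2fastq 2.17, TopHat2 2.1.1, the build hg19 and HTSeq. The sources used here do not give the HTSeq version, strand setting or annotation. The authors deposited raw read counts for each gene symbol, with 77.1 to 79.5% of counted alignments on genes, 12.8 to 15.2% on no feature and 1.50 to 1.95% ambiguous. Whether reads of overlapping genes on opposite strands were separated is therefore not known. The overlapping annotated genes of the 10 chains (MIR3606 and MIR711) lie on the same strand as their chain and had 0 counts.

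Counts were filtered with filterByExpr (minimum count 10, minimum total 15), scaled by TMM (factors 0.972 to 1.04) and tested with edgeR 4.0.16 in R 4.3.3 (quasi-likelihood, all 9 libraries in one model, Benjamini-Hochberg adjustment over 13704 genes). The SE was taken from the size of the log2 fold change over the root of F. The edgeR fit and its calls were tested on simulated data, while the chain ratios, permutation tests and count intervals were not. Chain ratios are counts plus 0.5 per kb of the merged exons of GENCODE v29 (GRCh38), which hold every annotated transcript, compared by two-sided exact permutation tests over libraries (Python 3.11.15, 24 tests adjusted together). Differences of log2 ratios between conditions do not depend on the length. Intervals and ratios of counts cover counting error only.

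No library copied another. Deviations of same-numbered libraries of shGLO1#2 and shNT from their condition means had correlations of 0.21, 0.19 and 0.31. All were over the limit of 0.1 set here for treating libraries as paired by number. No label states a pairing, and libraries of different number were not compared, so a pairing is not established. The main tests do not use it. Those of shGLO1#1 and shNT (-0.03, 0.06 and 0.25) and of shGLO1#2 and shGLO1#1 (0.20, 0.07 and 0.34) were not all over the limit of 0.1. The alternatives were RLE and upper-quartile factors, other filters, DESeq2 1.42.0, models of the 2 groups compared, no fold change limit, a replicate block, another offset and length, and each library left out.

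Every one of the 10 chains is named, with GLO1, up to 4 called genes per list (those with the largest smaller change of the clones), and the 3 genes most correlated with each tested chain among genes of at least 1 CPM. The 10 chains and the lists were chosen with earlier results of these data known. A list of partners of the anchoring fibrils is not reported here.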

Additional observations from a re-analysis of the deposited data

Results flagged for a closer look

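The 3 chains COL11A1, COL6A2 and COL6A3 differed between the clones in a direct test of shGLO1#2 against shGLO1#1, so their changes against shNT were not the same in the clones. COL11A1 differed by 6.005 on the log2 scale, with 3 of 3 shGLO1#2 libraries above the shGLO1#1 libraries. COL6A2 differed by 1.22, also with 3 of 3 libraries above. COL6A3 differed by -2.35, with 3 of 3 shGLO1#2 libraries below those of shGLO1#1. Beside these values, GLO1 was at 14.0 to 15.5 CPM in shGLO1#2 and at 64.2 to 65.9 CPM in shGLO1#1, and its part in the differences was not tested. With 1 clone for each hairpin, the hairpin and the clone cannot be told apart.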

How the results depend on the processing

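The counts of chains called were 5 higher in shGLO1#1 and 6 higher in shGLO1#2 against shNT, and 2 higher and 1 lower in shGLO1#2 against shGLO1#1, under every alternative that kept all 9 libraries. With the replicate block they were also 5, 6, 2 and 1, and the block changed no call of the 10 chains. Over all genes it gave 836 higher and 381 lower in shGLO1#1 against shNT (820 and 377 without it) and 717 and 359 in shGLO1#2 (697 and 355 without it). In the lists, where the block was chosen after seeing the data, it changed 0 of 213 calls over 71 tested genes. In the chain ratios the block cannot move a difference, since the mean of the same-numbered differences equals the difference of the condition means. It is therefore no check of them, and 3 pairs cannot give a p under 0.25. With each library left out in turn, the count in shGLO1#2 against shNT was 5 to 6 and that between the clones was 1 to 2 higher, the lower values without the first shGLO1#2 library and without the third shGLO1#1 library. Differences near 0 changed sign as libraries were left out. These were, on the log2 scale and between the clones, COL1A1 (-0.26 to 0.10), COL5A1 (-0.085 to 0.106), COL5A2 (-0.21 to 0.19), COL6A1 (-0.012 to 0.293) and COL7A1 (-0.107 to 0.073), and COL1A1 in shGLO1#2 against shNT (-0.010 to 0.478). Among the log2 ratios, COL5A1/COL5A2 (-0.15 to 0.27) and COL1A1/COL1A2 (-0.719 to 0.030) did so between the clones, COL6A3/COL6A2 in shGLO1#1 against shNT (-0.16 to 0.49) and COL6A3/COL6A1 for both clones against shNT (-0.58 to 0.0060). None of these was called. Coding length moved the level of a ratio by at most 0.29 (COL5A1/COL5A2). Upper-quartile scaling moved the median of all genes to 0.03 in shGLO1#1 and 0.05 in shGLO1#2. Few reads limit COL1A2, COL3A1 and, in shNT, COL6A2 and COL11A1.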
